A study of Mus musculus with 32 samples.

Results

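10 genes of the Wnt pathway were followed in the olfactory bulb of mice with and without a Tshz1 mutation: the ligands Wnt9b, Wnt5a and Wnt7b, the antagonists Frzb, Sfrp1 and Dkk3, the nuclear factors Lef1 and Tcf7l2, and the targets Axin2 and Ccn4. They were the 10 listed genes among 16593 named genes on the array, and all 19 of their probes, of 25697 probes in all, were used. The genes had been picked from the mutant against control differences measured in these same data, those of Wnt9b and Ccn4 first. Their genotype differences are therefore given as descriptions without a test, and only the comparison of the ages and the other genes of the pathway are tested. Those tests are not wholly free of the choice either. The lists of other genes were written by pathway role but with earlier results of these data known, and the age comparison reuses the same arrays.

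Wnt proteins are secreted, lipid-modified ligands that bind Frizzled receptors. In the canonical branch this stops the degradation of beta-catenin, which then enters the nucleus and activates target genes together with the HMG box proteins of the TCF and LEF family. Secreted frizzled-related proteins bind Wnts outside the cell, and Axin2 is a target gene that feeds back as a scaffold of the complex that degrades beta-catenin. In the forebrain, Wnt signals act on progenitor cells, on the maturation of newborn neurons and on growing axons.

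Sensory axons from the nose end in the olfactory bulb, whose interneurons are born elsewhere and migrate in. Tshz1 is a transcription factor with zinc fingers. At E18.5, just before birth, the controls were Tshz1 GFP/+ and the mutants Tshz1 GFP/delta, both nestin +/+, so every E18.5 animal carried the GFP allele. At P30, in young adults, the controls were Tshz1 flox/+ and the mutants Tshz1 flox/GFP, both nestin +/Cre, so every P30 animal carried a floxed allele and a nestin Cre, the nestin promoter being active in neural progenitors. The strain was a mix of C57/BL6, 129/Ola and CD1. Each of the 4 groups had 8 arrays, and the labels do not say whether each array stands for 1 animal, so the p-values reflect the spread of these arrays, which may be technical. The titles and genotypes of the P30 samples had been exchanged in a correction of the record and are used as corrected. Age, chip and alleles cannot be told apart, and no probe in the table used here was named Tshz1, so the labels could not be checked against the targeted gene.

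A probe was called detected on an array when the deposited detection p-value was under 0.05. Between 49.3% and 55.2% of probes were detected per E18.5 array and between 40.1% and 49.3% per P30 array. Eomes and Tbx21, transcription factors of mitral and tufted cells, were detected on all 16 arrays of each age. The probe for Omp, a marker of mature olfactory sensory neurons, was detected on 0. Of 6 listed markers of the axons of those neurons, 2 at E18.5 and 3 at P30 were still detected on enough arrays to be tested. E18.5 control replicates 6 and 8 and P30 mutant replicates 1 and 2 lay apart from the rest, with a median correlation to the other arrays of their age of 0.961, 0.967, 0.908 and 0.918. Levels are log2 normalized intensities, normalized within each age unless stated, and are not compared between probes. In whole bulbs, fewer cells of a type and less RNA per cell cannot be told apart.

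The reference promoter windows of Wnt9b, Axin2 and Tcf7l2 are printed because the first is the ligand that was higher in mutants of both ages, the next is the feedback target, and the last holds a TCF/LEF motif. The windows run from 250 bases before to 50 after a gene start, in RefSeq's GRCm38.p6, at chr11:103749772-103750071 on the minus strand, chr11:108920099-108920398 on the plus strand and chr19:55895071-55895370 on the plus strand.
Wnt9b: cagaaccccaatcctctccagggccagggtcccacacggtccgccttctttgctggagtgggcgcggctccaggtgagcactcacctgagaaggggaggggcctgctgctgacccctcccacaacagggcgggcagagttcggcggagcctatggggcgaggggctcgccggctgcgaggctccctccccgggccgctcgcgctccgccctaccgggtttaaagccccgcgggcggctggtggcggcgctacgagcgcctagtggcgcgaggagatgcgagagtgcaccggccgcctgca
Axin2: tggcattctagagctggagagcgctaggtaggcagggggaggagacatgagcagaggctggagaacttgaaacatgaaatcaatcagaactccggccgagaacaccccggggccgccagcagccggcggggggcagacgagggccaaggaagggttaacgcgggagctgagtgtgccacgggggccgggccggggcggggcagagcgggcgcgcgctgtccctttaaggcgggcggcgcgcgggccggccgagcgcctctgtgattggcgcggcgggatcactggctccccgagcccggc
Tcf7l2: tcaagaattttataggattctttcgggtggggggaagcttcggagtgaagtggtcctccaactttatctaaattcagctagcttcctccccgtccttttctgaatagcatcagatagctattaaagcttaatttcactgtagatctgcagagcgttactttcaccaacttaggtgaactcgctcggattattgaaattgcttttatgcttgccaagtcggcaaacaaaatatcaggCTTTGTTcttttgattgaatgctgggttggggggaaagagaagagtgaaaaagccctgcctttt
Capitals mark the motif, and the Tcf7l2 window belongs to the second of its listed starts. The letters searched, on both strands, began with CTTTGAA, went on to a second motif, CTTTGAT, and then to another motif, CTTTGTA, and ended with the motif CTTTGTT. The Tcf7l2 window held the last of them starting 14 bases before the gene start, and the Wnt9b and Axin2 windows held none of these letters. The window of the other Tcf7l2 start held none either and was 70.0% G and C. Of the 4 Lef1 windows 1 held a match, and the Frzb window held none. Of 32851 windows of the same length, 16.9% held a match. The Wnt9b, Axin2 and Tcf7l2 windows were 71.7%, 70.0% and 42.0% G and C, against a median of 52.7% over all windows. Windows were matched for 5 of the 10 genes, those of Frzb and Lef1 included.

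Wnt9b, a ligand known in the mouse for inducing kidney tubules and for outgrowth of the midface, was above background only on mutant arrays, at both ages. At E18.5 its first probe ran from 4.83 through a median of 5.12 to 5.34 in controls, none of 8 arrays detected, and from 5.53 through 5.94 to 6.73 in mutants, 5 of 8 detected. Every mutant array lay above every control array. The means were 5.12 ± 0.17 and 6.01 ± 0.40 (SD, n = 8), a difference of 0.89 ± 0.15 (SE).

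At P30 the same probe ran from 4.68 through 4.75 to 4.87 in controls, again with 0 of 8 detected, and from 5.57 through 5.93 to 6.73 in mutants, with 5 of 8 detected. The groups again did not overlap. The means were 4.76 ± 0.07 and 6.00 ± 0.34 (SD, n = 8), a difference of 1.24 ± 0.15 (SE). Since no control array detected the probe, the difference is a bound: mutants were at least 1.11-fold higher at E18.5 and at least 1.2-fold higher at P30. Each bound sets the mutant mean against, on each control array, the higher of the probe's signal and the lowest signal of any detected probe.

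The second Wnt9b probe showed the same pattern. It was detected on 0 of 8 controls at each age and on 5 of 8 E18.5 mutants and 4 of 8 P30 mutants, with differences of 0.74 and 1.05 and bounds of at least 1.03-fold and at least 1.08-fold. At P30 the groups did not overlap, and at E18.5 7 of 8 mutants lay above the highest control. All of these signals lay close to background: on the P30 mutant arrays the raw intensity of the first probe was 131 to 213, against 72 to 86 on the controls. On the first and second chip the first probe differed by 1.04 and 0.73 at E18.5 and by 1.11 and 1.37 at P30. Without E18.5 control replicates 6 and 8 the E18.5 difference was 0.91, and without P30 mutant replicates 1 and 2 the P30 difference was 1.29.

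Ccn4, a secreted matricellular protein first described as WISP1, a product induced by Wnt1, was lower in P30 mutants, while its E18.5 groups overlapped. Its brighter probe was detected on every array. At E18.5 it ran from 7.34 through a median of 7.68 to 8.13 in controls and from 7.52 through 7.71 to 8.24 in mutants, and the ranges overlapped. The difference there was 0.17 ± 0.13 (SE).

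At P30 it ran from 7.90 through 8.33 to 8.92 in controls and from 6.08 through 6.37 to 6.92 in mutants. Every mutant lay below every control. The means were 8.36 ± 0.30 and 6.41 ± 0.28 (SD, n = 8), 3.87-fold lower in mutants, a log2 difference of -1.95 ± 0.16 (SE). The chips gave -1.99 and -1.92, and the value without P30 mutant replicates 1 and 2 was -1.95.

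The dimmer Ccn4 probe was detected on no E18.5 array, on all 8 P30 controls and on 0 of 8 P30 mutants. It ran from 5.75 through 5.94 to 6.56 in P30 controls and from 4.95 through 5.19 to 5.31 in P30 mutants. These ranges did not overlap either, and the probe was at least 1.2-fold lower in mutants.

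**Figure D1:**
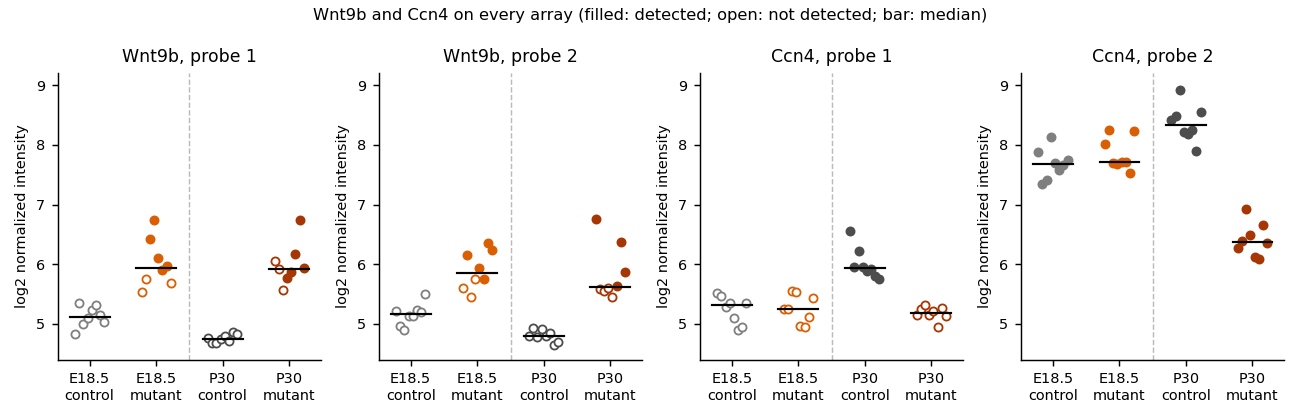
Each point is 1 array; the vertical axis is log2 normalized intensity, normalized within each age, so values are read within an age, on either side of the dashed line. Wnt9b points are filled, that is detected, only among mutants, and for the brighter Ccn4 probe all 8 P30 mutants lie between 6.08 and 6.92, below the lowest P30 control at 7.90.

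Wnt7b, a canonical ligand that in the mouse brain promotes the growth of dendrites, was 2.05-fold higher in P30 mutants. Its brighter probe ran from 6.68 through 7.72 to 8.59 in P30 controls and from 7.90 through 8.85 to 9.92 in P30 mutants, and 6 of 8 mutants lay above the highest control. The difference was 1.04 ± 0.26 (SE), and 0.92 and 1.15 on the separate chips. Without P30 mutant replicates 1 and 2 it was 0.89.

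The dimmer Wnt7b probe was detected on 0 of 8 P30 controls and 7 of 8 P30 mutants, at least 1.5-fold higher in mutants. At E18.5 the groups overlapped on both probes, with differences of -0.08 ± 0.12 and -0.07 ± 0.15 (SE). The brighter probe there ran from 9.50 to 9.97 in controls and from 9.16 to 9.97 in mutants.

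Wnt5a, a ligand that often acts without beta-catenin through the receptor Ror2, leaned lower in mutants of both ages without separating the groups. Its brighter probe at E18.5 ran from 10.29 through 10.74 to 10.95 in controls and from 10.03 through 10.41 to 10.69 in mutants. All 8 mutants lay below the control median, and the difference was -0.32 ± 0.11 (SE), -0.31 and -0.32 on the separate chips. At P30 the difference was -0.33 ± 0.20 (SE), but it came from the first chip at -0.66, with 0.00 on the second, and it was -0.13 without P30 mutant replicates 1 and 2. The dimmer probe differed by -0.21 at E18.5 and by -0.47 at P30.

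Among the antagonists, Dkk3, a divergent member of the Dickkopf family, and Frzb, a secreted frizzled-related protein that in the mouse hippocampus restrains adult neurogenesis, were higher in P30 mutants. The brightest Dkk3 probe ran from 9.26 through 9.50 to 9.93 in P30 controls and from 9.71 through 10.30 to 10.47 in mutants, and 7 of 8 mutants lay above the highest control. The difference was 0.73 ± 0.15 (SE), or 1.65-fold, with 0.81 and 0.64 on the separate chips and 0.77 without P30 mutant replicates 1 and 2. Another Dkk3 probe gave 0.83 ± 0.18 (SE), and the dimmest was detected on no array of either age.

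Frzb ran from 7.18 through 7.93 to 8.77 in P30 controls and from 8.22 through 8.66 to 9.33 in P30 mutants. The ranges overlapped, with 3 of 8 mutants above the highest control. The difference was 0.75 ± 0.21 (SE), or 1.68-fold, but it was 1.22 on the first chip and 0.28 on the second, and 0.63 without P30 mutant replicates 1 and 2. The Frzb call in the P30 fit was kept in 10 of 29 alternatives; with 1 array left out it was kept only without control replicate 4 or 5 or mutant replicate 5 or 6. At E18.5 Dkk3 differed by 0.10 ± 0.11 and Frzb by 0.16 ± 0.20 (SE), with overlapping groups.

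Sfrp1, a frizzled-related protein abundant in embryonic neural progenitors, was detected on all 16 E18.5 arrays and on a single P30 array, a control. At E18.5 it ran from 9.22 through 10.12 to 10.35 in controls and from 9.16 through 10.06 to 10.52 in mutants. The ranges overlapped almost wholly, and the difference was 0.03 ± 0.21 (SE).

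The groups overlapped for both nuclear factors, which bind DNA at TCF/LEF sites. Tcf7l2 was read by a probe detected on all arrays, which was 0.21 ± 0.13 higher at E18.5 and 0.42 ± 0.20 (SE) higher at P30 in mutants. At P30 it ran from 5.90 through 6.39 to 7.08 in controls and from 6.19 through 6.89 to 7.29 in mutants, with broad overlap. Of its other probes, one was detected on 0 arrays of either age and the other on 4 controls and 5 mutants at E18.5 and on 1 mutant at P30. Lef1 was near background throughout: its first probe was detected on no array, and its second on 1 control and 2 mutants at E18.5 and on 0 P30 arrays. Lef1 therefore entered no fit.

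Axin2, the feedback target, overlapped fully between the E18.5 groups, at 10.24 ± 0.29 in controls and 10.24 ± 0.21 in mutants (SD, n = 8), a difference of 0.00 ± 0.13 (SE). At P30 it ran from 6.71 through 7.10 to 7.68 in controls and from 7.21 through 7.60 to 8.06 in mutants. All 8 mutants lay above the control median and 3 above the highest control. The difference was 0.44 ± 0.17 (SE), 0.79 on the first chip and 0.10 on the second.

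**Figure D2:**
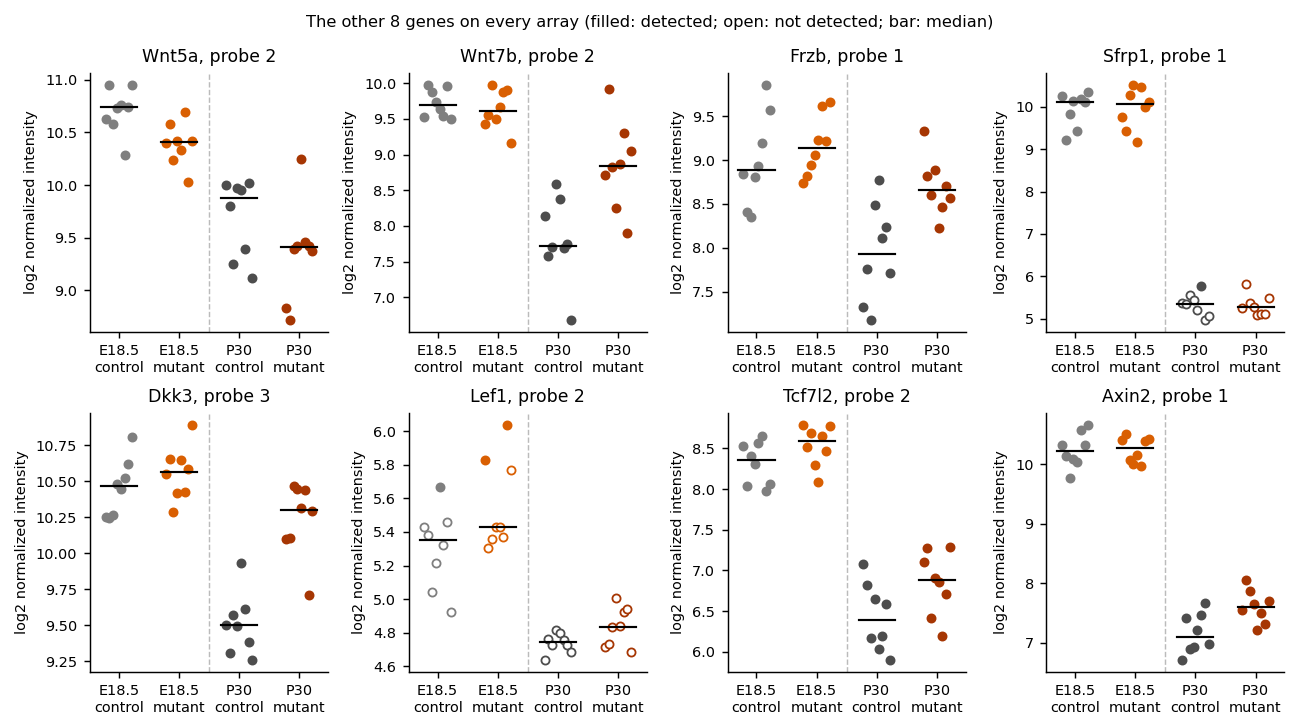
Each point is 1 array and each panel 1 probe of the other 8 genes; the vertical axis is log2 normalized intensity, normalized within each age, and its scale differs between panels. In Wnt7b, 6 of 8 P30 mutants lie above the highest P30 control at 8.59, while Sfrp1 is filled, that is detected, on 1 P30 array and Lef1 on 3 arrays, all at E18.5.

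Of the 10 genes, 9 entered the E18.5 fit and 8 the P30 fit. Lef1 entered neither, and Sfrp1 was left out at P30, by the filter that asks for detection on at least 4 arrays. A gene detected only in mutants, such as Wnt9b, passed that filter through the group in which it was higher. In limma's fit over all features, with a Benjamini-Hochberg adjusted p under 0.05 as the threshold, 1 of 9 passed at E18.5, Wnt9b, and 0.581% of all features did, 0.0737% higher and 0.507% lower. Differences lay above 0 for 7 of the 9 there, and for 48.7% of all features. At P30, 5 of 8 passed: Wnt9b, Wnt7b, Frzb and Dkk3 higher, Ccn4 lower. Of all features at P30 4.33% passed, 2% higher and 2.33% lower, and differences lay above 0 for 6 of the 8 and for 51.8% of all features. All mutants lay above all controls for 1 of the 9 at E18.5, against 0.0369% of all features, and for 1 of the 8 at P30, against 0.524%. Ccn4 at P30 was the opposite case, as were 0.594% of all features, and in either direction groups did not overlap for 1.12% at P30 and 0.341% at E18.5. Since these contrasts chose the genes, nothing is read from those counts. The difference between the ages in the genotype difference passed for 3 of 9 (Ccn4, Wnt9b and Wnt7b) and for 1.85% of all features. By adjusted p, the gene nearest the P30 threshold among those that passed was Frzb, with a log2 difference of 0.75. Among those that did not pass it was Axin2, with a log2 difference of 0.44, which was well outside the threshold. The threshold is not one of size.

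**Figure D3:**
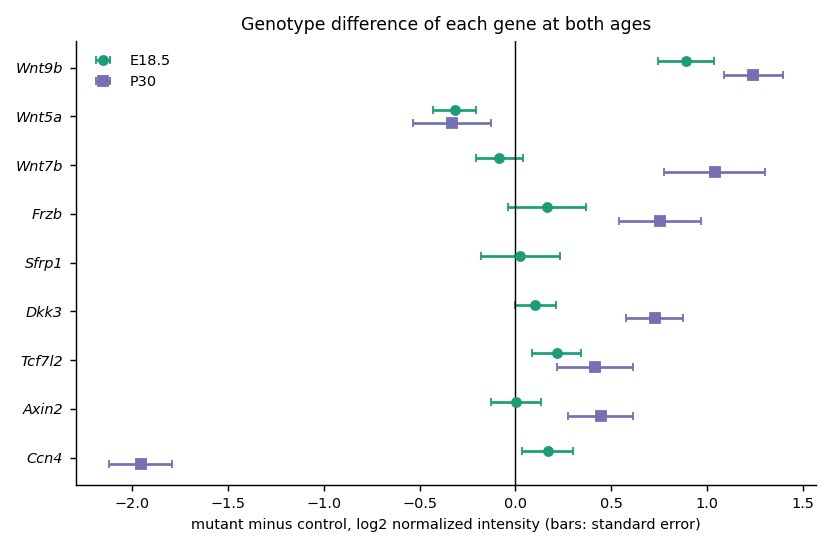
Points show the mutant minus control difference in log2 normalized intensity, and bars its standard error, for each gene that entered the fit of that age. Wnt9b is higher at both ages, at 0.89 and 1.24, while Ccn4 is at 0.17 at E18.5 and -1.95 at P30.

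Other Wnt pathway genes were read in 10 lists by role: ligands, secretion, receptors, inhibitors, R-spondins with their receptors and norrin, cytoplasmic transducers, nuclear factors, targets, the planar polarity branch and the CCN family. Apart from the genes above, 104 of 113 listed genes had a probe. At E18.5, 75 were tested and 0 passed limma's threshold, with a median difference of -0.01 against -0.01 over all features. At an unadjusted p under 0.05 there were 7, 3 of them lower in mutants, while 8.96% of all features lay under that p. At P30, 59 were tested and 3 passed, all higher in mutants. Of all features 4.33% passed in either direction and 2% higher, so the count is near the share in either direction. At an unadjusted p under 0.05 there were 8 of the 59, 0 of them lower, while 16.1% of all features lay under that p. The median over the 59 was 0.15, with 46 above 0, against a median of 0.01 and 51.8% above 0 over all features.

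Sfrp2, a frizzled-related inhibitor of the same family as Frzb, rose from 6.95 ± 0.29 to 8.09 ± 0.45 (SD, n = 8). It ran from 6.56 through 6.98 to 7.37 in P30 controls and from 7.31 through 8.16 to 8.64 in mutants, a difference of 1.13 ± 0.19 (SE, limma adjusted p = 0.000616). Only the ends of the ranges overlapped.

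Tnfrsf19, a receptor of the tumour necrosis factor family and a known beta-catenin target, rose from 9.03 ± 0.17 to 9.73 ± 0.19 (SD, n = 8). The highest control was at 9.26 and the lowest mutant at 9.50, so the groups did not overlap. The difference was 0.70 ± 0.14 (SE, limma adjusted p = 0.00307). It was 0.59 with arrays scaled to a common median in place of quantile normalization, where it no longer passed.

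Vangl2, a membrane protein of the planar polarity branch, was 0.86 ± 0.24 (SE) higher, with a limma adjusted p = 0.0454. That rested on 1 probe, since its other probe differed by 0.14 (limma adjusted p = 0.771 with every probe tested). The call was lost in 16 of 29 alternatives, 10 of them with 1 array left out.

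By role at P30, of the secreted or membrane inhibitors 3 of 10 tested passed, all higher: Sfrp2, Dkk3 and Frzb, of which the last pair was picked beforehand. Of the ligands, 2 of 7 tested passed, both picked beforehand. Of the receptors 0 of 10, of the cytoplasmic transducers 0 of 9 and of the nuclear factors 0 of 8 passed. The targets split, with Tnfrsf19 higher and Ccn4 lower among 9 tested. In the CCN family, 1 of 2 tested passed, Ccn4.

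Several cell type markers moved with these genes at P30. Beside every marker count of that age stand 2% of all features that passed higher and 2.33% that passed lower. Among granule cell markers, 4 of 5 tested fell: Nrgn and Gng4, the defining pair, with Pbx3 and Meis2. The log2 of the summed intensity of the 5 tested, in which the brightest genes weigh most, ran from 14.12 to 14.87 in controls and from 13.84 to 14.33 in mutants. The sums given for the other lists are of this kind too. Among microglial markers 4 of 8 rose, C1qa, C1qb, C1qc and Trem2, with the sum from 10.64 to 11.52 in controls and from 11.33 to 12.79 in mutants. Gfap rose in the astrocyte list, where 1 of 6 passed, and the sum ran from 14.77 to 15.29 in controls and from 15.07 to 15.43 in mutants.

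In the list for olfactory ensheathing glia 1 of 4 tested rose, Npy, and the sums did not overlap, at 11.49 to 12.12 and 12.14 to 12.89. Its defining marker Sox10 was not analysed here. Vim rose among 5 radial glia markers, Foxc1 among 9 meningeal markers and Tbr1 between 2 cortical markers, while the cortical marker Neurod6 was detected on 0 arrays. Among 10 markers of bulb neurons Slc17a7 and Th rose and Doc2g fell. At E18.5 Nrgn, Gng4 and Gad1 fell among 5 granule cell markers and Th fell among bulb neuron markers. Of all features at E18.5, 0.0737% passed higher and 0.507% lower. The sum of the granule list there ran from 13.98 to 14.57 in controls and from 13.46 to 14.41 in mutants. The part of these cell types in the differences of Wnt9b, Ccn4, Wnt7b, Dkk3, Frzb, Sfrp2, Tnfrsf19 and Vangl2 was not tested.

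The comparison of the ages was not itself used to pick the genes, so it is tested. It shares its arrays with the genotype contrasts that were used. For genes that differed between the P30 groups, such as Ccn4, Wnt7b and Dkk3, it is therefore not free of that choice. No p is given for those genes, and their calls are descriptions. It was made on all 32 arrays normalized together, with a limma adjusted p under 0.05 and a change of at least 2-fold as the threshold. Of the 9 genes that entered, 3 passed in controls, Ccn4 higher and Sfrp1 and Axin2 lower at P30, where 23.9% of all features passed, 11.3% higher and 12.6% lower, and 49.2% lay above 0. In mutants 2 passed, Sfrp1 and Axin2, both lower, where 23.4% of all features passed, 11.1% higher and 12.3% lower, and 49.1% lay above 0. A share of 3 in 9 or 2 in 9 is not far from that background.

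Sfrp1 was the most reduced. Its level went from 9.43 ± 0.41 at E18.5 to 5.55 ± 0.37 at P30 in controls (SD, n = 8), a fitted difference of -3.87 ± 0.20 (SE). Of 8 P30 controls 1 detected the probe, so the size there is that of a signal near background. In mutants Sfrp1 went from 9.45 ± 0.49 to 5.51 ± 0.35, and with 0 of 8 P30 mutants detected it was at least 10.01-fold lower. Sfrp1 passed the detection filter of this fit through the E18.5 arrays, where it was higher. No p is given for it, and its calls are descriptions.

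Axin2 fell from 9.72 ± 0.30 to 7.90 ± 0.38 in controls (SD, n = 8), 3.54-fold (limma adjusted p = 1.98e-12). In mutants it fell from 9.73 ± 0.22 to 8.39 ± 0.30, 2.52-fold (limma adjusted p = 3.66e-09). The P30 groups both lay below the E18.5 groups, whose ranges overlapped.

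Ccn4 rose from 7.24 ± 0.23 to 9.17 ± 0.30 in controls (SD, n = 8), 3.81-fold. In mutants it went from 7.40 ± 0.26 to 7.00 ± 0.35, a difference of -0.39 ± 0.15 (SE) that was under 2-fold. These are given without a p, since the P30 values also served to choose the gene. In order, the P30 mutants were lowest, then the E18.5 controls and the E18.5 mutants, which differed by less than their spread, and the P30 controls were well above the rest.

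Wnt9b was at background in the controls of both ages, which have no order, at 5.78 ± 0.33 in E18.5 mutants and at 6.47 ± 0.45 in P30 mutants (SD, n = 8). With 5 of 8 arrays detected in each mutant group, and a place in the fit that rests on the mutants alone, the age difference of Wnt9b is given as these levels, without a test.

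The remaining genes were under 2-fold between the ages in both genotypes, Lef1 not being tested. In controls Tcf7l2 differed by -0.81 (limma adjusted p = 0.000373) and Wnt7b by -0.60. In mutants they differed by -0.51 and 0.54. With arrays scaled to a common median Tcf7l2 and Wnt7b each came to -1.41 in controls, past the threshold, and to -1.22 and -0.34 in mutants, so that Wnt7b changed sign there. Dkk3 was 0.35 higher in P30 controls and 0.95 higher in P30 mutants, though with arrays scaled to a common median these became -0.42 and 0.12. Frzb, at 0.25 in controls and 0.86 in mutants, became -0.52 and -0.01 on that scale, and Wnt5a, at 0.27 in each, became -0.50 and -0.58. That scaling moved the median of all features to -0.53 in controls and -0.57 in mutants. Against that shift Sfrp1 in controls, at a log2 difference of -4.07, Axin2 at -2.56 and Ccn4 at 1.21 kept their direction and their calls.

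**Figure D4:**
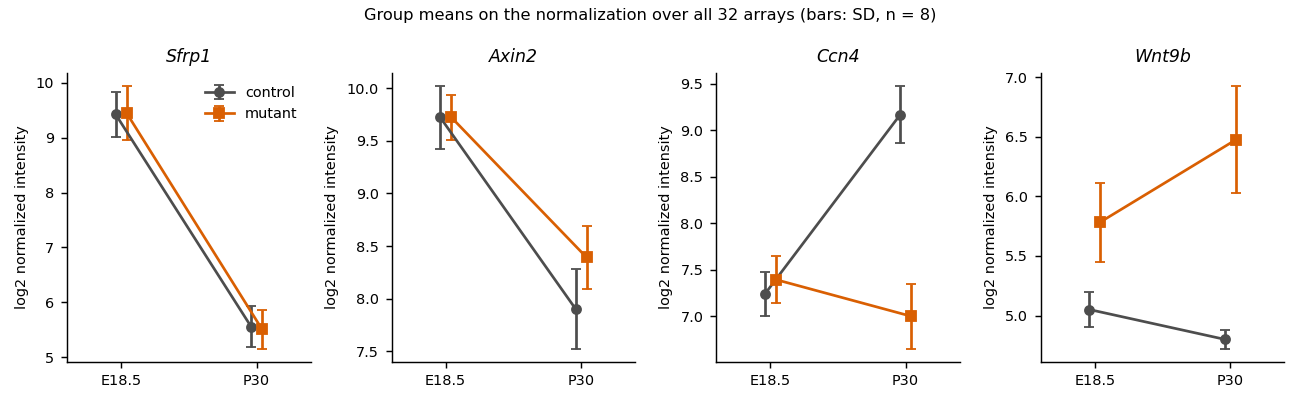
Points are group means of log2 normalized intensity over 8 arrays on the normalization of all 32 arrays together, with bars of 1 SD, joined across the ages for controls and mutants. Sfrp1 and Axin2 fall with age in both genotypes, Ccn4 goes from 7.24 to 9.17 in controls and from 7.40 to 7.00 in mutants, and Wnt9b, not detected in controls, is highest in P30 mutants at 6.47.

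Around these genes, 77 other pathway genes were tested between the ages of the controls: 4 were higher and 16 lower at P30, where 11.3% and 12.6% of all features were, with a median of -0.34 against -0.01 over all features. In mutants 8 were higher and 13 lower, where 11.1% and 12.3% of all features were. The number that passed in all was near that background. The higher genes in controls included Rspo3, a secreted amplifier of Wnt signals, detected on 0 E18.5 and 8 P30 controls and at least 4.58-fold higher. Rspo3 passed the detection filter through the P30 arrays, so no p is given for it. Lgr5, a receptor for R-spondins, was 2.73 ± 0.21 (SE) higher (limma adjusted p = 1.69e-13), and Ccn2, a relative of Ccn4, 1.41 ± 0.16 (SE) higher (limma adjusted p = 1.34e-09). Daam2, a formin of the planar polarity branch, was 1.37 ± 0.21 (SE) higher (limma adjusted p = 5.80e-07), but Ccn2 and Daam2 came to 0.80 and 0.85, under 2-fold, with arrays scaled to a common median.

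Draxin is a secreted axon guidance protein that inhibits Wnt signals. The probe read over all arrays was detected on 8 E18.5 and 0 P30 controls and was at least 6.48-fold lower (limma adjusted p = 1.05e-19). That holds for this probe only. Another Draxin probe was brighter at P30 and passed the detection filter of the P30 fit. Its means there were 6.23 in controls and 6.32 in mutants, and its age difference is not given here. The receptor Ror2 fell by 2.19 ± 0.19 (SE) and the receptor Fzd2 fell by 2.37 ± 0.22 (SE, limma adjusted p = 1.64e-11), on the log2 scale. Ror2 passed the detection filter through the E18.5 arrays, so no p is given for it. Ror2 was detected on 2 of 8 P30 controls, Fzd2 on 6 and Gsk3a on 3, so these sizes include signals near background. The ligand Wnt7a fell by 1.34 ± 0.17, the transducers Gsk3a and Ctnnbip1 by 1.09 each and the nuclear factor Bcl9l by 1.29 (limma adjusted p of at most 6.00e-06). Celsr1, a planar polarity cadherin, was detected on 7 E18.5 and 0 P30 controls, at least 1.15-fold lower. It too passed the filter through the E18.5 arrays, and no p is given. The ligand Wnt3 was detected on 4 E18.5 and 0 P30 controls, and its bound allows no fold. The corepressor Tle1, at -0.75, and the secretion factors Porcn, at 0.76, and Wls, at 0.12, were under 2-fold in controls, and Wls turned to -0.67 with arrays scaled to a common median.

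Cell type markers also moved with age in controls. Of 10 meningeal and fibroblast markers 9 were lower at P30, of 6 astrocyte markers 3 were higher, of 8 microglial markers 4 were higher, and of 8 endothelial and pericyte markers 4 were lower and 1 higher. Lower too were 3 of 5 radial glia, 2 of 4 ensheathing glia and 2 of 3 cortical markers. Higher were 3 of 3 sensory axon and 2 of 5 granule cell markers. The bulb neuron, choroid plexus and nasal lists moved in both directions. Of all features 11.3% were higher and 12.6% lower. The part of these cell types in the age differences of Sfrp1, Axin2 and Ccn4 was not tested.

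The genes most like Wnt9b and Ccn4 across arrays are named as a description only, since all of these values share the same arrays and the 2 genotypes. Over the 16 E18.5 arrays and 9996 named genes, Wnt9b correlated best with Mettl8 at a Pearson r of 0.83, then Tmem218 at 0.78 and Lzts2, Neurog2 and Pou3f4 at 0.77, 0.77 and 0.76. The lowest were Nog, a secreted BMP antagonist, at -0.84, Slc35f4 at -0.83 and Prokr2, a receptor known for the migration of olfactory interneurons, at -0.82. With the group means removed these became 0.33 for Mettl8, 0.69 for Lzts2, -0.41 for Nog and -0.22 for Prokr2.

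Over the 16 P30 arrays and 9173 named genes, Ccn4 correlated best with Kcnh3, a potassium channel, at 0.94, then Snx7 at 0.93 and Chrna10, Frmd3 and Ppp3cc at 0.92 each. The lowest were Wnt9b itself at -0.92, with Fbxo2 and Pdlim4 at -0.91 each. With the group means removed Kcnh3 came to -0.04, Frmd3 to 0.60 and Wnt9b to -0.15.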

How the data were processed

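Biotinylated cRNA from total RNA of 32 olfactory bulb samples had been hybridized to Illumina mouse bead arrays, per the labels' protocols. Signals were extracted with GenomeStudio, per the submitters' processing notes. For every probe on each array, the raw file gives a mean bead intensity with its detection p-value, per the file headers. The deposited normalized intensity table, from its values quantile normalized and background subtracted by the authors, served as an alternative only.

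Intensities were background corrected by neqc from limma 3.58.1 under R 4.3.3 (offset 16, quantile normalization, log2), each age by itself for the genotype comparisons and all 32 arrays together for the age comparisons and the difference of the genotype differences. The log2 values were thus computed here from the deposited intensities. A probe entered with a detection p under 0.05 on at least 4 arrays of a fit, and a gene was read by its brightest probe. Of the probes, 23978 had 1 gene name and 1719 had none, and no genome build was stated for them. Tests were limma's, two-sided, with Benjamini-Hochberg adjustment over all features, and were tested on simulated data. The precision is limited by the number of arrays.

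The 10 genes and all lists were chosen with earlier results of these data known. Named beside them were other pathway genes past the threshold in a genotype fit, the 2 with the smallest p of each list between the control ages, and the 5 highest and 3 lowest correlates of Wnt9b and Ccn4. The markers named beside the counts were those past the threshold. Replicate numbers deviated together in all 8 pairs at E18.5 (r from 0.118 to 0.355) and in 6 of 8 pairs at P30 (r from -0.07 to 0.417). This does not establish pairs, since samples of like number also shared a chip. At E18.5, 2 of 8 controls and 3 of 8 mutants correlated best with their own number, and at P30 4 and 2. The main fits used no pairing, and a replicate block served as an alternative. Array weights, scaling, offsets, filters, probes, blocks, chips and left-out arrays were varied.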

Additional observations from a re-analysis of the deposited data

Results flagged for a closer look

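The genotype differences of 6 pathway genes differed between P30 and E18.5 in limma's test of the difference itself, on all 32 arrays normalized together. For Ccn4, Wnt9b and Wnt7b this test is built from contrasts that were known when the genes were chosen, so no p is given. Ccn4 differed by -2.32 ± 0.21 (SE), with means of 7.24 and 7.40 in E18.5 controls and mutants and of 9.17 and 7.00 at P30. Wnt9b had a fitted value of 0.94, but of 0.41 and without a call when arrays were scaled to a common median, and since no control array detected it neither is an exact size. Wnt7b differed by 1.14 ± 0.31 (SE) and its probe kept the call in 2 of 9 alternatives. Of all features, 1.85% passed in this test, and of the 9 genes that entered 3 did.

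Of 77 other pathway genes, 3 passed. Sfrp2 differed by 1.45 ± 0.23 (SE, limma adjusted p = 0.000184), with means of 6.95 and 6.73 at E18.5 and of 7.66 and 8.89 at P30. Tnfrsf19 differed by 0.64 ± 0.17 (SE, limma adjusted p = 0.0329) and did not pass at 0.60 under median scaling nor at 0.66 without E18.5 control replicates 6 and 8. Draxin had a fitted value of 1.32, but the probe read over all arrays was detected on 0 of 8 P30 controls and 7 of 8 P30 mutants, so this is measured against a group not well above background and is no exact size. The fit of the P30 arrays alone read Draxin by another probe, which differed by 0.09 there.

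Single arrays stood apart in 3 of 76 groups of 8, where chance gives about 1 in 20. Replicate 2 of the P30 controls was at 7.33 for the second Dkk3 probe, with the next array at 7.88. Replicate 8 of the E18.5 mutants was at 4.89 for the first Dkk3 probe, and replicate 5 of the P30 mutants at 5.24 for the first Lef1 probe, in both cases a probe that no array of the group detected.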

How the results depend on the processing

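The genotype contrasts chose the 10 genes, so their calls below describe the processing and support nothing. The fitted Wnt9b difference ranged from 0.53 to 0.96 over 23 alternatives at E18.5 and from 0.69 to 6.17 over 27 at P30. The 6.17 came from the submitters' table, whose values under 1 were set to 1 here before log2. That floor was thus set in the processing here, and 6.17 is no exact size. Ccn4 at P30 kept its call in all 29, from -2.32 to -1.61. Wnt7b at P30 kept it in 25 of 29, Dkk3 in 26 and Frzb in 10. No called value changed sign. With 1 array left out, features passing numbered 50 to 74 at E18.5 and 340 to 469 at P30, with 1 to 1 and 4 to 5 of the 10 genes; at P30 2 to 4 other pathway genes passed. At E18.5, 41 features passed on the first chip, 5 on the second and 26 with all arrays normalized together. None of the 10 genes (0) passed on either chip or with detection on at least 8 arrays, settings in which the first Wnt9b probe was not tested. At P30, 137 features passed on the first chip, 194 on the second, 1030 with all arrays together and 736 with array weights, and 1 (Ccn4) and 2 (Ccn4, Wnt9b) of the 10 genes on the chips. Under median scaling, the submitters' table and no filter 3 of them passed. Other pathway genes at P30 numbered 1 on the first chip and under median scaling, 9 with all arrays together and 5 with array weights. The share of higher calls at P30 was 31.4% on the first chip and 54.0% without mutant replicates 1 and 2, against 199 of 430. For the difference of the genotype differences, 209 features passed, but 84 under median scaling (1 of the 10 genes, Ccn4), 342 with array weights, 137 without E18.5 control replicates 6 and 8 and 380 with the replicate block; other pathway genes were 5 with weights and 5 with the block. The replicate block gave 62 features at E18.5 and changed no call of the 10 genes there; at P30 it gave 539, and Frzb lost its call. Between the ages, median scaling called 4004 features in controls, 557 higher, against 2698 with 1278 higher, and 5 of the 10 genes, Wnt7b and Tcf7l2 added; in mutants it called 4125, 540 higher, against 2644 with 1252 higher. Other pathway genes called numbered 31 in controls with the submitters' table and 11 in mutants with an offset of 50. Leaving out P30 mutant replicates 1 and 2, and leaving out E18.5 control replicates 6 and 8 in the fits of all 32 arrays, was chosen after seeing the data. Except where another value is named, the causes were not tested. Signals near background, as for Wnt9b, Lef1 and Sfrp1 at P30, allow bounds only.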
